A study of Mus musculus with 6 samples.

Results

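The 37 genes described here were chosen by name as 17 tissue macrophage genes, 11 monocyte genes, 5 C-type lectin receptor genes and 4 genes of innate immune receptors and their adaptor. They are 37 of the 29374 genes for which any read was estimated. RNA was sequenced from CD11b+Gr1+ splenocytes that flow cytometry had purified from tumor-bearing Mll-AF9 mice, with 3 Rpl22+/+ libraries and 3 Rpl22-/- libraries. Both genotypes therefore carried the Mll-AF9 knockin allele, a fusion oncogene that drives myeloid leukemia, and differed in Rpl22, the gene of a ribosomal protein of the large subunit. The Rpl22 strain had been backcrossed to C57BL/6. The methods describe the mice of the study in general as young adults and give no separate age for the leukemic animals sequenced. The study names a single leukemia explant for each genotype, and neither it nor the labels say that the libraries of a genotype stem from different animals. Each genotype may therefore be represented by 1 leukemia, and the p-values then measure only the spread between its libraries, which may be technical. No Mll-AF9-negative library was analysed here, so every difference is between Rpl22+/+ and Rpl22-/- leukemia.

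Monocytes leave the bone marrow for the blood, where they carry lysozyme, coagulation factors and matrix proteins, and some become macrophages in tissues. Resident macrophages, such as those of the red pulp of the spleen, clear dying cells and particles with scavenger receptors, the TAM receptor kinases and the complement protein C1q. C-type lectin receptors bind carbohydrates and lipids of microbes and damaged cells. Many of them, like the Trem receptors, signal through partner proteins that hold an activating motif (ITAM), such as Tyrobp (DAP12) and Fcer1g, whereas others, such as Clec12a, Sirpa and Cd300a, hold an inhibitory motif (ITIM) of their own.

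The libraries held 35828500 (Rpl22-/- replicate 1) to 102866127 (Rpl22-/- replicate 3) estimated reads. The next lowest, Rpl22+/+ replicate 1, held 70202750. Rpl22 itself, the disrupted gene, stood at 148, 235 and 152 CPM (reads scaled to a common total, with a factor for composition) in Rpl22+/+ replicates 1, 2 and 3 and at 58.3, 89.9 and 73.5 CPM in Rpl22-/- replicates 1, 2 and 3, so its RNA was lower in the Rpl22-/- libraries but was not absent. Across 13202 genes, Rpl22+/+ replicates 1 and 3 correlated at r = 0.992, and replicate 2 stood apart from them (r = 0.926 and 0.934). The sort antigen CD11b, encoded by Itgam, was present in every library, at a mean of 1928 CPM in Rpl22+/+ and 948 CPM in Rpl22-/-. The Gr1 antibody can bind Ly6G and Ly6C, and Ly6g fell from a mean of 159.5 CPM to 14.2 CPM, whereas Ly6c2 stood at 967 CPM and 1379 CPM (log2 fold change 0.51 ± 0.25, SE, adjusted p = 0.180 by edgeR) and Ly6c1 at 10.3 CPM and 13.5 CPM (0.40 ± 0.28, adjusted p = 0.360). Of 11 neutrophil genes, 8 were called lower in Rpl22-/- libraries and their summed level ranged from 67010 to 88818 CPM in Rpl22+/+ and from 32157 to 43170 CPM in Rpl22-/-. All 7 genes of granulocyte and monocyte progenitors were called higher, with sums of 2430 to 4158 CPM against 22589 to 27518 CPM. Summed erythroid genes rose from between 84.6 and 128 CPM to between 579 and 1152 CPM, with 6 of 7 called, and summed T and NK cell genes stood at 40.6 to 50.3 CPM against 15.9 to 19.7 CPM, with 5 of 8 called lower and 2 higher. Of the 9 dendritic cell genes and the 7 B cell genes, 2 and 1 were called, all of them lower, and the platelet genes Pf4, Ppbp and Gp1ba were too low to be tested. The sums of dendritic cell genes were 1548 to 2553 CPM and 809.9 to 1481 CPM. Those of B cell genes were 1573 to 2319 CPM and 1879 to 3325 CPM. Ighm, at means of 1232 CPM and 2249 CPM, made up most of the B cell sum, and 6 of the 7 B cell genes had log2 fold changes below 0. For platelet and megakaryocyte genes the sums were 2.79 to 4.51 CPM and 3.36 to 3.64 CPM. The part of these shifts in the results below was not tested, and in these bulk samples fewer cells of a type and less RNA per cell cannot be told apart.

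Most of the monocyte and C-type lectin genes were lower in the Rpl22-/- libraries, whereas the tissue macrophage genes were split. A gene was called when its Benjamini-Hochberg adjusted p from edgeR's quasi-likelihood test, taken over all genes tested, was under 0.05 and its log2 fold change was over 1 in size. Of the 37 genes, 36 passed the filter on low counts, and each of these 36 had at least 10 reads in all 6 libraries. The exception was Vsig4, a macrophage complement receptor, with 7 reads in all in Rpl22+/+ and 12 in Rpl22-/-. Of the 36, 7 were called higher and 12 lower in Rpl22-/-, where 8.93% of all 16656 genes tested were called higher and 8.54% were called lower. At any size of change, 9 of the 36 passed the adjusted p as higher and 16 as lower, against 13.7% and 13.8% of all genes. The libraries of the 2 genotypes did not overlap for 29 of the 36, and for 46.1% of all genes.

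By role, 6 of 16 tissue macrophage genes were called higher and 3 lower. None of 11 monocyte genes was called higher by edgeR, DESeq2 or limma-voom, and 5 were called lower. Of the 11, F10 alone reached an unadjusted p under 0.05 as higher, and it passed the adjusted p below the fold required. Among the 5 lectin receptors 1 was called higher and 3 lower, and among the 4 innate receptor and adaptor genes 1 was called lower. The median log2 fold change was 0.54 for the tissue macrophage genes, -0.97 for the monocyte genes, -1.60 for the lectin receptors and -1.10 for the receptor and adaptor genes, beside 0.07 for all genes tested. Sums weigh the most abundant genes, and for both the tissue macrophage genes and the lectin receptors they went against the median, with no overlap. The tissue macrophage genes, most of whose reads were those of Cd68 and Adgre1, summed to 239 to 360 CPM in Rpl22+/+ and 132 to 205 CPM in Rpl22-/-. The lectin receptors, where Clec12a was the highest, summed to 499 to 734 CPM and 827 to 1049 CPM. The sums of the monocyte genes were 10869 to 16694 CPM and 5100 to 7015 CPM. The number called higher fell from 7 to 3 without Rpl22+/+ replicate 1, to 2 without Rpl22+/+ replicate 3, and to 3 without Rpl22-/- replicate 2 or without Rpl22-/- replicate 3. The number called lower stayed between 11 and 13 when any single library was left out.

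**Figure D1:**
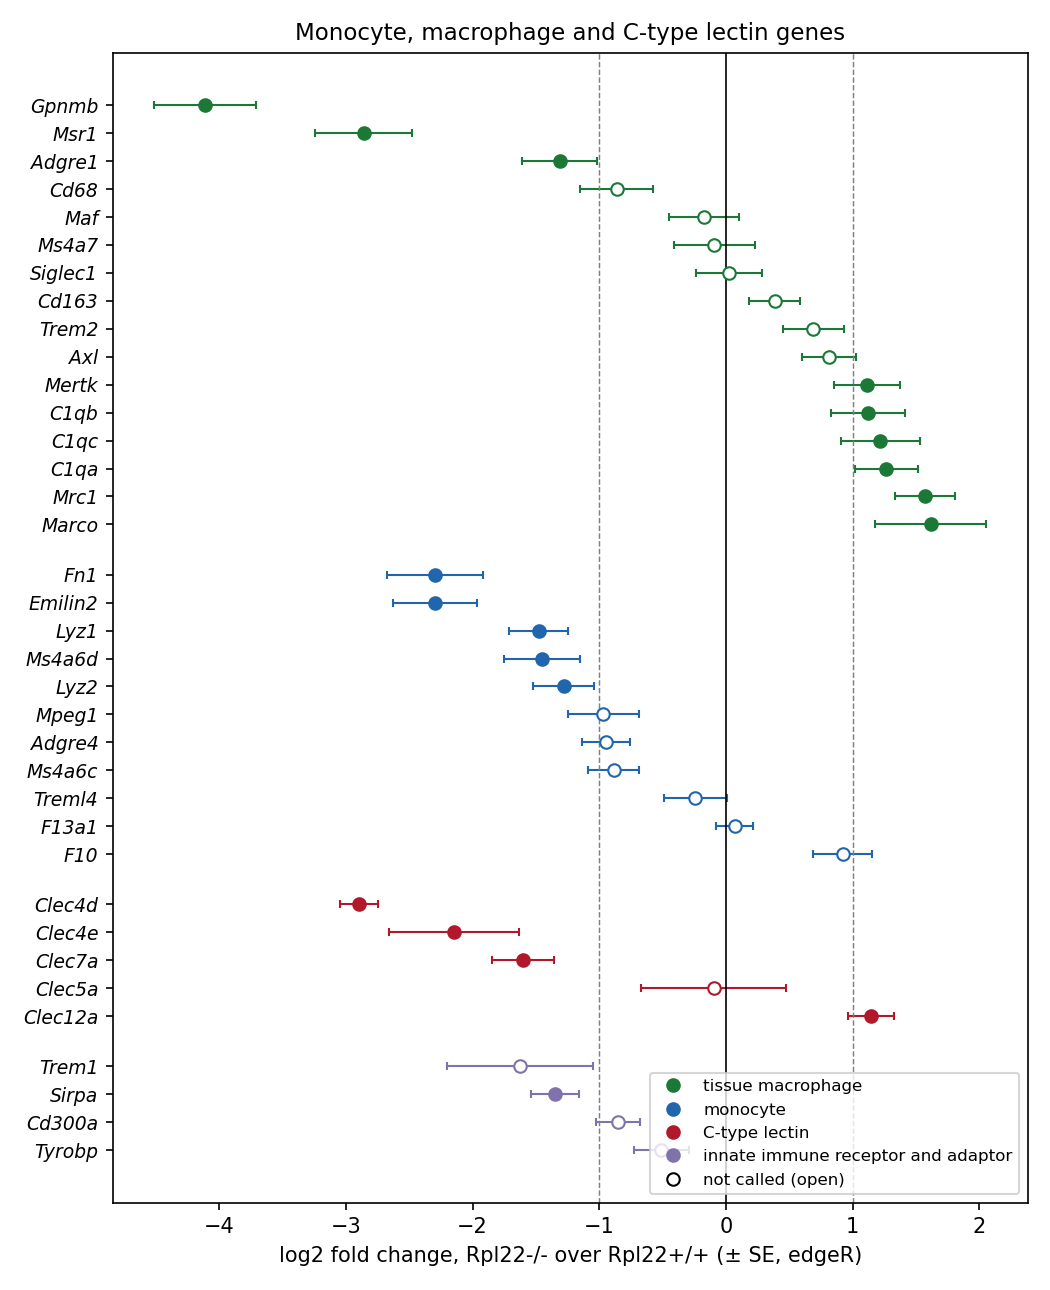
Log2 fold change of the 36 genes tested, Rpl22-/- over Rpl22+/+ (points, with SE as bars, edgeR), grouped by role. Filled points were called, open points were not, and the dashed lines mark a log2 fold change of 1 in either direction. The tissue macrophage genes span from -4.11 (Gpnmb) to 1.62 (Marco), and 9 of the 11 monocyte genes lie below 0.

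Levels differed widely between these genes. Compared per transcript length, Lyz2 was the highest in both genotypes, at 10462 ± 822 TPM in Rpl22+/+ and 4628 ± 548 TPM in Rpl22-/- (SD, n = 3). Tyrobp came next, at 1978 ± 176 TPM and 1480 ± 123 TPM, and in neither genotype did its libraries overlap those of the genes ranked on either side of it. Below it in Rpl22+/+ came F13a1 (257 ± 53.0 TPM), Ms4a6c (253 ± 23.1 TPM), Clec12a (235 ± 64.5 TPM) and Sirpa (212 ± 12.9 TPM), and the libraries of each overlapped those of the next. In Rpl22-/- the order after Tyrobp was Clec12a (628 ± 150 TPM), F13a1 (287 ± 8.86 TPM), F10 (253 ± 5.43 TPM), Ms4a6c (144 ± 21.7 TPM) and Sirpa (85.7 ± 4.51 TPM), with no overlap between neighbours.

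The tissue macrophage genes were mostly low. The highest of them per length, Cd68, stood at 143 ± 26.4 TPM in Rpl22+/+ and 85.5 ± 18.0 TPM in Rpl22-/-, and Cd163, Mrc1, Mertk, Marco, Siglec1, Ms4a7 and Maf all had means under 2 TPM in both genotypes. Genes with a mean of at least 100 TPM numbered 10 of the 37 in Rpl22+/+ and 6 of the 37 in Rpl22-/-.

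**Figure D2:**
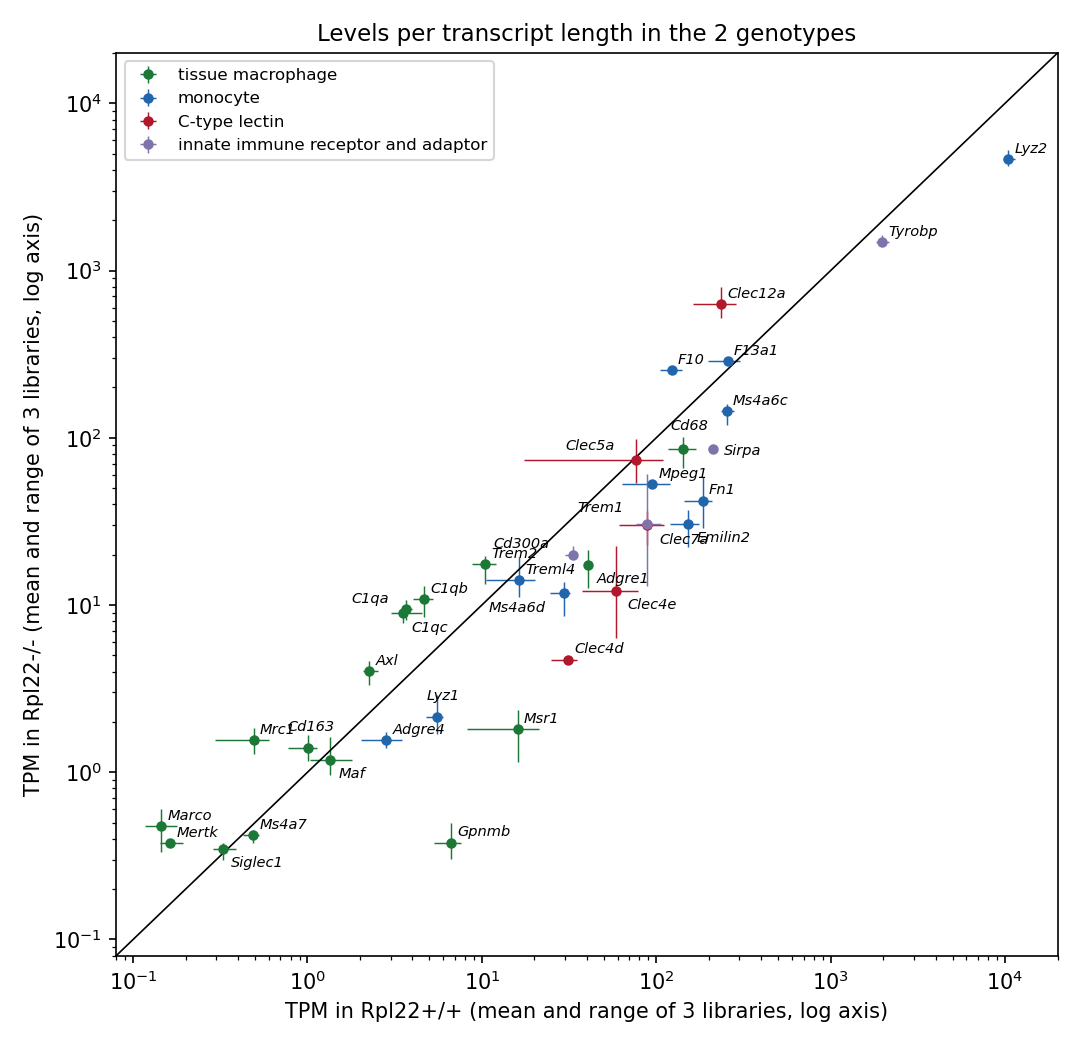
Mean TPM of the 36 genes tested in Rpl22+/+ (horizontal) and Rpl22-/- (vertical), both on log axes, with bars over the range of the 3 libraries and a line of equal level. Lyz2 and Tyrobp lie above the rest in both genotypes. The C1q genes, Mrc1, Clec12a and F10 lie above the line, and Gpnmb, Msr1, Clec4d, Fn1 and Emilin2 lie far below it.

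Among tissue macrophage genes called higher, the 3 subunits of C1q, the recognition protein of the classical complement pathway, rose together. C1qa stood at 2.31, 3.38 and 2.36 CPM in Rpl22+/+ replicates 1, 2 and 3 and at 5.21, 7.81 and 6.32 CPM in the Rpl22-/- replicates. C1qb was measured at 2.79, 4.74 and 3.35 CPM and at 5.67, 9.93 and 7.99 CPM. For C1qc the values were 2.38, 4.58 and 2.43 CPM and 5.91, 8.44 and 7.50 CPM. Every Rpl22-/- library was above every Rpl22+/+ library for each subunit, and within each genotype replicate 2 was the highest.

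The log2 fold changes were 1.27 ± 0.25 (SE) for C1qa, 1.12 ± 0.29 for C1qb and 1.22 ± 0.31 for C1qc, with adjusted p of 0.0110, 0.0302 and 0.0284. C1qa was not called without Rpl22+/+ replicate 3 (adjusted p = 0.0514), C1qb was not called without Rpl22+/+ replicate 1 or 3 or Rpl22-/- replicate 2 or 3 (adjusted p of 0.0921, 0.106, 0.0719 and 0.0919), and C1qc was not called without any single library other than Rpl22+/+ replicate 2 (adjusted p of 0.0506 to 0.101). The subunits kept similar proportions. Of their summed TPM, C1qa made up 28.9% to 33.5% over the 6 libraries, C1qb 34.5% to 41.9% and C1qc 26.9% to 32.9%.

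The 3 C1q genes lie within 18.7 kb of each other on chromosome 4, at chr4:136607440-136626114 of GRCm39. Genes on that chromosome were shifted upward as a whole in these libraries, with a median log2 fold change of 0.43 over 734 genes that had a mean of at least 50 counts. The C1q values were above that median by more than their SE, and the part of the chromosome's shift in them was not tested.

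Mrc1, the mannose receptor CD206, stood at 2.22, 1.53 and 2.46 CPM in Rpl22+/+ and at 6.66, 5.57 and 6.19 CPM in Rpl22-/-. It had the smallest adjusted p of the macrophage genes that rose, and it was 2.97-fold higher (1.57 ± 0.24 on the log2 scale, adjusted p = 0.00400). On log2(TPM + 1), which understates the change of low genes, it was under the fold required (0.78). Mertk, a receptor kinase that binds apoptotic cells through bridging ligands, was near the limit of detection at 0.484, 0.581 and 0.628 CPM against 1.15, 1.32 and 1.20 CPM. Its groups did not overlap (1.11 ± 0.26, adjusted p = 0.0210), and its call was lost on leaving out Rpl22+/+ replicate 1 (adjusted p = 0.0788) or 3 (0.0654), or Rpl22-/- replicate 2 (0.0667) or 3 (0.0686), and on log2(TPM + 1) (0.25) and log2(TPM + 0.1) (0.87) its change was under the fold required.

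Axl, the related TAM kinase, passed the adjusted p at a smaller change (0.81 ± 0.21, adjusted p = 0.0295), but not without Rpl22+/+ replicate 1 or 3 or Rpl22-/- replicate 2 or 3 (adjusted p of 0.0673 to 0.109). Marco, a scavenger receptor of marginal zone macrophages, was called higher (1.62 ± 0.44, adjusted p = 0.0339) at under 1 CPM in every library, from 0.157 to 0.311 CPM in Rpl22+/+ and from 0.428 to 0.889 CPM in Rpl22-/-. The call for Marco was lost without any single library other than Rpl22+/+ replicate 2 and Rpl22-/- replicate 1, with adjusted p between 0.0907 and 0.122, and on log2(TPM + 1) (0.37).

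Another 3 macrophage genes were called lower, and 2 of them, Gpnmb and Msr1, changed by more than any macrophage gene called higher. Gpnmb, a glycoprotein of lysosomes and the cell surface in lipid-laden macrophages, fell the most of the 36 genes. It stood at 11.2, 22.2 and 15.1 CPM in Rpl22+/+ replicates 1, 2 and 3 and at 0.561, 0.899 and 1.29 CPM in Rpl22-/-, so the genotypes were far apart (log2 fold change -4.11 ± 0.40, adjusted p = 0.000750), a fold of 17.3.

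Msr1, the class A scavenger receptor, stood at 20.4, 9.71 and 25.8 CPM in Rpl22+/+ and at 2.25, 2.33 and 3.09 CPM in Rpl22-/-. Its log2 fold change was -2.86 ± 0.38 (adjusted p = 0.00244), and Rpl22+/+ replicate 2 was the lowest of its genotype but still above every Rpl22-/- library. Adgre1, which encodes the adhesion receptor F4/80, had values of 78.0, 106 and 77.7 CPM and of 22.2, 48.0 and 35.3 CPM. It was called lower (-1.31 ± 0.30, adjusted p = 0.0179), except without Rpl22-/- replicate 3 (adjusted p = 0.0682).

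Cd68, a lysosomal glycoprotein of phagocytes, did not pass the test. Its libraries stood at 93.1, 176 and 115 CPM in Rpl22+/+ and at 50.9, 78.2 and 82.0 CPM in Rpl22-/-, which did not overlap (-0.86 ± 0.29, adjusted p = 0.0682). Neither did Trem2 (0.69 ± 0.24, adjusted p = 0.0767), Cd163 (0.38 ± 0.20, adjusted p = 0.208), Maf (-0.17 ± 0.28, adjusted p = 0.704), Ms4a7 (-0.09 ± 0.32, adjusted p = 0.867) or Siglec1 (0.02 ± 0.26, adjusted p = 0.964). Under the 15 alternatives Cd68 passed the adjusted p in 5 and Trem2 in 6, and neither was called in any. Ms4a7 and Siglec1 changed sign with the scaling and with the libraries used, so no direction can be given for them.

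Of 20 further tissue macrophage genes, 16 were tested, of which 4 were called higher and 7 lower, with a median log2 fold change of -0.31. The 2 largest rises were those of Cd5l, a secreted protein of tissue macrophages (1.91 ± 0.33, adjusted p = 0.00675), and Spic, the transcription factor of red pulp macrophages (1.45 ± 0.31, adjusted p = 0.0152). Cd5l stood at 1.18, 2.15 and 1.22 CPM in Rpl22+/+ and at 4.20, 7.01 and 5.86 CPM in Rpl22-/-. Spic was at 0.456, 0.392 and 0.574 CPM against 1.36, 1.53 and 1.00 CPM, and lost its call when Rpl22+/+ replicate 1 (adjusted p = 0.0561) or Rpl22-/- replicate 2 (0.0663) was left out, and on log2(TPM + 1) (0.61).

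Those that fell the most were Lyve1, a hyaluronan receptor, and Fcgr1, the high-affinity receptor for IgG. Lyve1 stood at 2.31, 2.39 and 2.73 CPM in Rpl22+/+ and at 0.187, 0.0399 and 0.123 CPM in Rpl22-/- (-4.50 ± 0.52, adjusted p = 0.00145), and on log2(TPM + 1) its change was -0.98. Fcgr1 was measured at 8.94, 15.7 and 11.8 CPM and at 1.39, 2.64 and 2.54 CPM (-2.46 ± 0.33, adjusted p = 0.00247). The red pulp and liver macrophage genes Timd4, Folr2, Clec4f and Cd209f were too low to be tested. Of 13 complement genes other than C1q, 11 were tested, 0 were called higher by edgeR, by DESeq2 or by limma-voom, although 2 were higher at an unadjusted p under 0.05, and 1 was called lower by edgeR and limma-voom and 2 by DESeq2. The gene called lower by edgeR was C5ar1, the receptor for the C5a peptide, which stood at 175, 223 and 169 CPM in Rpl22+/+ and at 30.0, 27.2 and 35.3 CPM in Rpl22-/- (-2.62 ± 0.18, adjusted p = 0.000203).

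**Figure D3:**
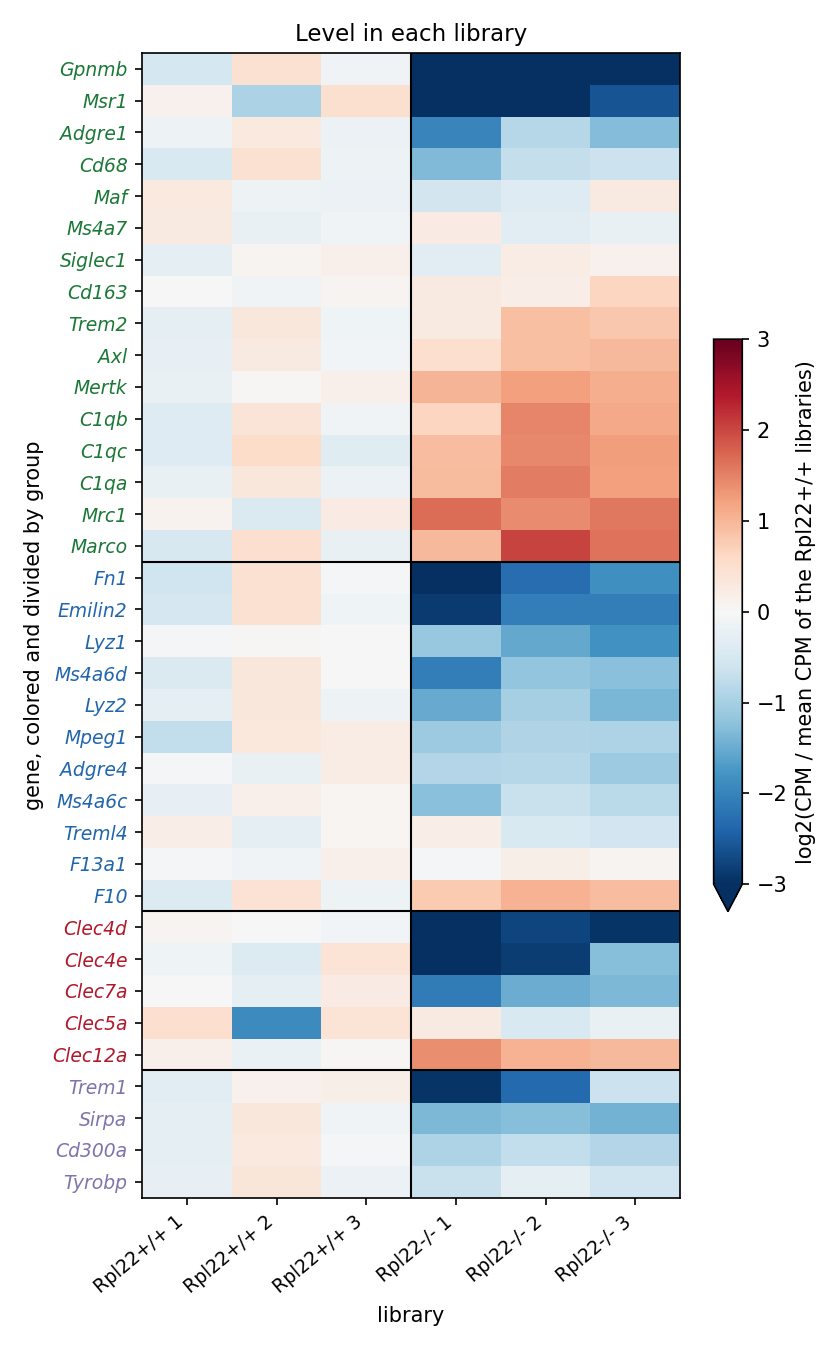
Level of each tested gene in each library as log2 of its CPM over the mean CPM of the 3 Rpl22+/+ libraries (color, from -3 in blue to 3 in red), with genes divided by role and sorted by fold change. Rpl22-/- replicate 1 was the lowest Rpl22-/- library for 27 of the 36 genes, and Rpl22+/+ replicate 2 was the highest Rpl22+/+ library for 20.

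Among the monocyte genes, the 2 encoding matrix proteins fell the most. Fn1, fibronectin, stood at 743, 1547 and 1108 CPM in Rpl22+/+ replicates 1, 2 and 3 and at 143, 231 and 317 CPM in Rpl22-/-. Emilin2, an elastin-associated glycoprotein of the matrix, stood at 298, 587 and 389 CPM and at 58.2, 100.4 and 101 CPM. Both fell about alike and without overlap, with log2 fold changes of -2.30 ± 0.38 (adjusted p = 0.00574) and -2.29 ± 0.33 (adjusted p = 0.00337), and each was called under all 15 alternative analyses.

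The coagulation genes did not follow them. F13a1, the A subunit of factor XIII, stood at 760, 738 and 874 CPM in Rpl22+/+ and at 759, 889 and 841 CPM in Rpl22-/-. The genotypes overlapped, and the difference was smaller than its SE (0.07 ± 0.15, adjusted p = 0.780). F10, factor X, was higher in Rpl22-/-, at 132, 236 and 156 CPM against 303, 359 and 333 CPM, with no overlap. It passed the adjusted p below the fold required (0.92 ± 0.23, adjusted p = 0.0273), but not without Rpl22+/+ replicate 1 (adjusted p = 0.0734) or 3 (0.104), nor without Rpl22-/- replicate 1 (0.0627) or 3 (0.0835). It was called under 4 of the 15 alternatives. These were the fit without Rpl22+/+ replicate 2 (1.16, adjusted p = 0.00167), no composition factor, log2(TPM + 1) and log2(TPM + 0.1).

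Lysozyme, which degrades bacterial cell walls, is encoded in the mouse by Lyz2, the gene of macrophages and granulocytes, and Lyz1, the gene of Paneth cells. The genes are neighbours on chromosome 10 (chr10:117113236-117128773 of GRCm39 holds both), and their reads are hard to assign. In GENCODE vM21 their coding sequences, without the stop codon, have 444 bases each and are 95.0% identical, with a longest identical stretch of 118 bases. The first 150 coding bases are shown with the 14 bases that differ in capitals.
Lyz1: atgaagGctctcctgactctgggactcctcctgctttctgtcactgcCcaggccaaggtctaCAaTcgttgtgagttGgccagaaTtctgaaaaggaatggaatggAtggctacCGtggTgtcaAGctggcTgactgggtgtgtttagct
Lyz2: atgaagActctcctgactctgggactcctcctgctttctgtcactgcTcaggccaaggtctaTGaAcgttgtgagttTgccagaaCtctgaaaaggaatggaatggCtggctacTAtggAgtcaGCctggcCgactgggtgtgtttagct

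Lyz2 stood at 8442, 12788 and 9184 CPM in Rpl22+/+ and at 3527, 5046 and 3931 CPM in Rpl22-/-, so it was called lower without overlap (-1.28 ± 0.24, adjusted p = 0.00949). Lyz1 stood at 4.90, 5.13 and 5.08 CPM against 2.30, 1.73 and 1.43 CPM (-1.48 ± 0.23, adjusted p = 0.00477). Its reads made up 0.0343% to 0.0653% of the reads given to the pair, and reads can be split between such near-identical copies, so the Lyz1 call is uncertain.

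The Ms4a genes encode membrane proteins of monocytes and macrophages. Ms4a6d stood at 22.7, 39.1 and 30.4 CPM in Rpl22+/+ and at 7.27, 13.5 and 12.8 CPM in Rpl22-/- and was called lower (-1.45 ± 0.30, adjusted p = 0.0135). Ms4a6c was higher in level, at 236, 312 and 288 CPM against 117, 176 and 159 CPM. Its groups did not overlap, and it passed the adjusted p at a smaller change (-0.89 ± 0.20, adjusted p = 0.0181), but not without Rpl22+/+ replicate 3 (adjusted p = 0.0664) or Rpl22-/- replicate 1 (0.0502) or 3 (0.0602). Without Rpl22-/- replicate 2 it was called (-1.02, adjusted p = 0.0242). These genes lie with Ms4a7, which did not change detectably, within 284 kb on chromosome 19 (chr19:11298403-11582213 of GRCm39).

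Mpeg1, the pore-forming protein perforin-2, stood at 202, 421 and 391 CPM in Rpl22+/+ and at 158, 182 and 178 CPM in Rpl22-/-. Rpl22+/+ replicate 1 lay nearer to the Rpl22-/- libraries than to the others of its genotype, and the log2 fold change was -0.97 ± 0.28 (adjusted p = 0.0428). Without that replicate Mpeg1 was called (-1.23, adjusted p = 0.00579), and without Rpl22+/+ replicate 3 or any single Rpl22-/- replicate it did not pass (adjusted p of 0.0865 to 0.135). The size-factor mean of Mpeg1 over the 6 libraries was 0.327 of the base mean in the deposited table of gene values, so the sum used here lacks reads of this gene. For 35 of the 37 genes that ratio was between 0.897 and 1.00. Adgre4, an F4/80-like receptor, ranged from 6.64 to 9.04 CPM in Rpl22+/+ and from 3.62 to 4.27 CPM in Rpl22-/- (-0.95 ± 0.19, adjusted p = 0.0115). Its call depended on the library left out: it was called without Rpl22+/+ replicate 2 (-1.09, adjusted p = 0.00363) or Rpl22-/- replicate 2 (-1.02, adjusted p = 0.0455), and did not pass the adjusted p without Rpl22+/+ replicate 3 (0.0543) or Rpl22-/- replicate 3 (0.0549). Across all 15 alternatives, Adgre4 was called under 2 and passed the adjusted p under 11. Treml4 did not pass the test (-0.24 ± 0.25, adjusted p = 0.534).

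All 20 further monocyte genes were tested, with 1 called higher, 7 called lower and a median log2 fold change of -0.54. The genes that fell the most were Ear2, a ribonuclease of patrolling monocytes and eosinophils, and Cybb, the catalytic subunit of the phagocyte oxidase. Ear2 stood at 12.6, 9.29 and 13.2 CPM in Rpl22+/+ and at 1.98, 2.76 and 2.15 CPM in Rpl22-/- (-2.35 ± 0.23, adjusted p = 0.000699). Cybb had values of 2012, 1676 and 2024 CPM and of 603, 591 and 529 CPM (-1.73 ± 0.16, adjusted p = 0.000561). Plac8, a small cysteine-rich protein of monocytes and myeloid progenitors, rose from 579, 866 and 614 CPM to 1258, 1686 and 1303 CPM (1.04 ± 0.22, adjusted p = 0.0140). Its call was lost without Rpl22+/+ replicate 1 (adjusted p = 0.0511) or 3 (0.0650), and without Rpl22-/- replicate 2 its log2 fold change was 0.90.

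**Figure D4:**
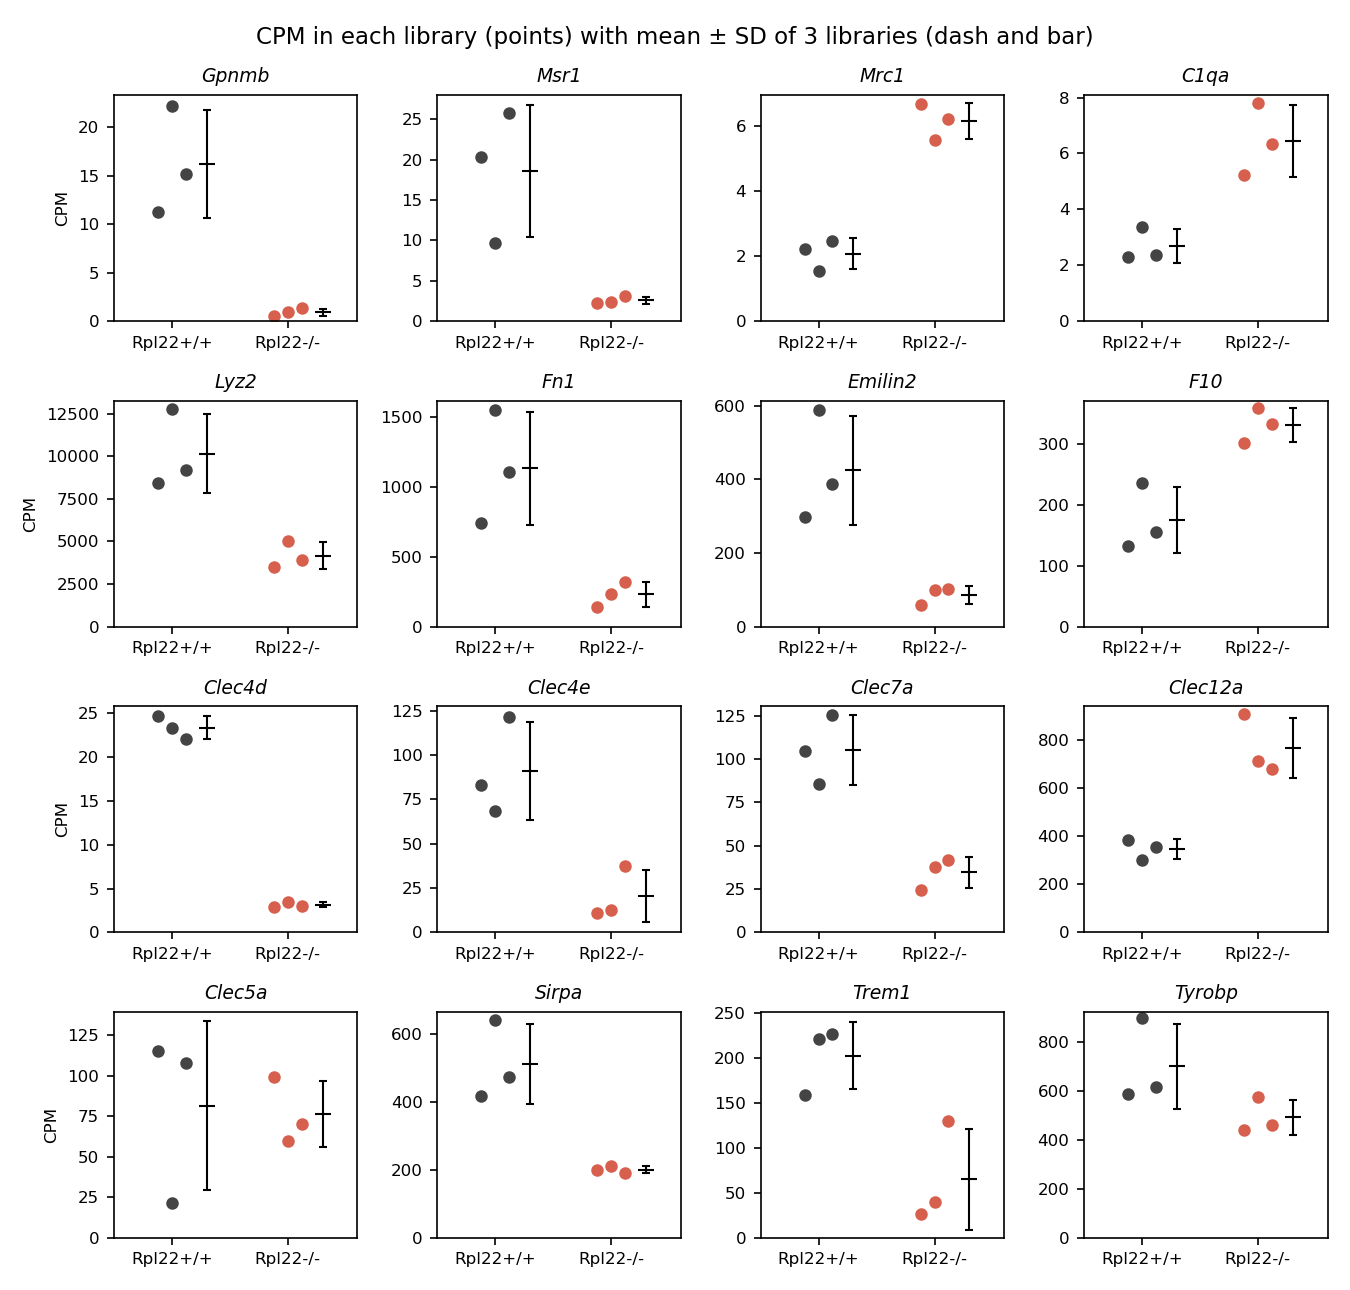
CPM of 16 genes in each library, on linear axes from 0, with the mean and SD of the 3 libraries of each genotype beside the points. The genotypes do not overlap except for Clec5a, in which Rpl22+/+ replicate 2 (21.6 CPM) lies below all other libraries, and Rpl22-/- replicate 3 lies above the other Rpl22-/- libraries for Trem1 (130 CPM) and Clec4e (37.5 CPM).

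The C-type lectin receptors changed in different directions. Clec4d, which pairs with Clec4e and couples to Fcer1g, stood at 24.7, 23.3 and 22.1 CPM in Rpl22+/+ and at 2.91, 3.45 and 3.05 CPM in Rpl22-/-. It had the smallest adjusted p of the 36 genes (-2.89 ± 0.15, adjusted p = 7.66e-05), with a spread between replicates far smaller than the 7.44-fold difference.

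Clec4e (Mincle), a receptor for mycobacterial glycolipid and for products of dying cells, stood at 82.8, 68.4 and 122 CPM in Rpl22+/+ and at 11.1, 12.7 and 37.5 CPM in Rpl22-/-. Rpl22-/- replicate 3 was the highest of its genotype but below every Rpl22+/+ library, and the change was -2.15 ± 0.51 on the log2 scale (adjusted p = 0.0223). The call was lost without Rpl22+/+ replicate 3 (adjusted p = 0.0708) and without Rpl22-/- replicate 1 (0.0674) or 2 (0.0887).

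Clec7a (Dectin-1), the receptor for fungal beta-glucan, stood at 105, 85.4 and 125 CPM in Rpl22+/+ and at 24.6, 37.7 and 41.6 CPM in Rpl22-/- (-1.60 ± 0.24, adjusted p = 0.00421). Clec12a, an inhibitory receptor that is used as a surface marker of myeloid leukemia cells, moved the other way, from 385, 300.4 and 357 CPM to 911, 713 and 680 CPM. It was the only one of the 5 lectin receptors called higher (1.14 ± 0.18, adjusted p = 0.00478), and that call, like the calls for Clec4d and Clec7a, was made under all 15 alternatives.

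Clec5a, which couples to Tyrobp, could not be placed, and its library values are given for their spread, a choice made after they were seen. It stood at 115, 21.6 and 108 CPM in Rpl22+/+ and at 99.3, 60.0 and 70.4 CPM in Rpl22-/-, so that Rpl22+/+ replicate 2 alone lay below all the others, and the difference was within its error (-0.09 ± 0.57, adjusted p = 0.929). Its sign changed under 6 of the 15 alternatives, and without Rpl22+/+ replicate 2 it passed the adjusted p at a small change (-0.60, adjusted p = 0.0477).

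Within the lectin genes, the reads were spread over several transcripts. As estimated by Salmon, a non-coding transcript, Clec5a-201, held 47.3% to 51.1% of the Clec5a reads in Rpl22+/+ and 59.5% to 62.6% in Rpl22-/-, while the coding transcript Clec5a-202 held 26.1% to 29.1% and 18.8% to 20.0%. Clec12a-201 held 83.5% to 90.3% of the Clec12a reads in Rpl22+/+ and 74.2% to 81.7% in Rpl22-/-, and the shorter coding transcript Clec12a-204 held 6.81% to 8.94% and 13.7% to 16.1%. For these transcripts the libraries of the genotypes did not overlap. For Clec7a, Clec7a-204, annotated as a polymorphic pseudogene, held 83.4% to 85.7% of the reads over all 6 libraries. The coding transcript Clec7a-202 held 13.5% to 16.5%. For Clec4e, the coding transcript Clec4e-201 held 26.6% to 62.4% of the reads over all 6 libraries. Clec4e-203 and Clec4e-206, each with a retained intron, held 15.9% to 22.6% and 10.4% to 28.9%. A further transcript with a retained intron, Clec4e-205, was given 24.7% in Rpl22-/- replicate 3, where the other libraries gave it 0% to 4.40%. These shares are descriptions of the estimates, with no test.

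Clec4d and Clec4e lie side by side within 27.8 kb on chromosome 6 (chr6:123239070-123266829 of GRCm39), on opposite strands, and Clec7a and Clec12a lie within 130 kb of each other further along it (chr6:129319654-129449742). The 250 bases before the RefSeq start site (GRCm38.p6) of the neighbours that fell and of the receptor that rose are shown 5′ to 3′ on the gene's strand, since they allow the 2 directions to be set beside the sequence. Capitals mark the words searched on both strands: GAGGAAG for PU.1, TTGCNNAA for C/EBP, TGANTCA for AP-1 and TATAAA for the TATA box, which do not overlap each other here.
Clec4d: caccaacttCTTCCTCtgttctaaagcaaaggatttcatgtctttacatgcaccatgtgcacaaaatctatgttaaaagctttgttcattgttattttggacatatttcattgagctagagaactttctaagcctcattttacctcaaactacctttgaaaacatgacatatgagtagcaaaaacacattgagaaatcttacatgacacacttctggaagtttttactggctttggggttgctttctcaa
Clec4e: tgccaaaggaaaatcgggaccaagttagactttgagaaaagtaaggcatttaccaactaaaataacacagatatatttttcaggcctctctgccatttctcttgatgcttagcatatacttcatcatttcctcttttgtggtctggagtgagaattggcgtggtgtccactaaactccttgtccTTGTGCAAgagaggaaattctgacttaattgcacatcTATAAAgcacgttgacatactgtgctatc
Clec12a: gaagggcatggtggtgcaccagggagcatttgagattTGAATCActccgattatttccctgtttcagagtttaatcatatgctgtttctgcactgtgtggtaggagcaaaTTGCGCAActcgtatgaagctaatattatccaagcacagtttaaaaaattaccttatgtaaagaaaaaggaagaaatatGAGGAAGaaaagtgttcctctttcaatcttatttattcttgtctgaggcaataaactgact

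The windows are chr6:123261857-123262106 (plus strand) for Clec4d, chr6:123289872-123290121 (minus strand) for Clec4e and chr6:129349994-129350243 (plus strand) for Clec12a. The Clec12a window held 3 words (AP-1, C/EBP and PU.1, in that order), the Clec4e window 2 (C/EBP and TATA) and the Clec4d window 1 (PU.1, on the opposite strand). Among 32851 RefSeq promoter windows of this length, 10.6% held the PU.1 word, 9.56% the C/EBP word, 6.75% the AP-1 word and 12.4% the TATA word. For 28 of the 37 genes a window was at hand, and 10, 6, 4 and 2 of them held these words. The PU.1 word was found in genes that were called higher (Mrc1, Marco, C1qc and Clec12a), in Clec4d, which was called lower, and in Axl, Trem2, Cd300a, F13a1 and Clec5a, which were not called. A match is a run of letters and was not tested as a site.

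Of 19 other C-type lectin genes, 18 were tested, of which 1 was called higher and 8 lower, with a median log2 fold change of -0.89. Olr1, the lectin-like receptor for oxidized LDL, fell from 49.3, 24.7 and 45.8 CPM to 0.695, 0.589 and 0.651 CPM (-5.96 ± 0.34, adjusted p = 9.84e-05). Cd302, an endocytic lectin receptor, fell from 13.7, 19.7 and 16.7 CPM to 2.22, 3.61 and 3.79 CPM (-2.37 ± 0.26, adjusted p = 0.00118). Clec11a, a secreted lectin that acts as a growth factor on hematopoietic progenitors, rose from 1.48, 2.35 and 1.78 CPM to 24.0, 28.7 and 20.8 CPM (3.71 ± 0.24, adjusted p = 0.000161). Among the 18 it was the gene called higher, and it encodes a secreted protein rather than a receptor.

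Among the innate receptors and their adaptor, Sirpa, the inhibitory receptor for CD47, was called lower. It stood at 417, 643 and 475 CPM in Rpl22+/+ and at 201, 212 and 190 CPM in Rpl22-/-, with no overlap and a narrow spread among the Rpl22-/- libraries (-1.35 ± 0.19, adjusted p = 0.00320). Cd300a, an inhibitory receptor for phosphatidylserine and phosphatidylethanolamine, passed the adjusted p at a smaller change (-0.85 ± 0.18, adjusted p = 0.0133), but not without Rpl22-/- replicate 1 (adjusted p = 0.0560) or 3 (0.0594).

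Trem1, a receptor that amplifies inflammatory responses of neutrophils and monocytes, stood at 159, 221 and 227 CPM in Rpl22+/+ and at 26.2, 40.3 and 130 CPM in Rpl22-/-. The groups did not overlap, but Rpl22-/- replicate 3 lay far above the other Rpl22-/- libraries and the test was not passed (-1.63 ± 0.58, adjusted p = 0.0815). Without that library Trem1 was called (-2.60, adjusted p = 0.00528), and it was called by DESeq2 (adjusted p = 0.00683) and by limma-voom (0.0463). It was also called with the replicate number as a block (-1.96, adjusted p = 0.0123). Tyrobp, the adaptor that Trem1, Trem2 and Clec5a share, stood at 585, 898 and 616 CPM in Rpl22+/+ and at 440, 575 and 460 CPM in Rpl22-/-. The libraries did not overlap, yet the difference did not pass the test (-0.51 ± 0.22, adjusted p = 0.132). Tyrobp passed the adjusted p under 3 of the 15 alternatives and was called under none. Trem1, Trem2 and Treml4 lie within 121 kb on chromosome 17 (chr17:48539796-48661175 of GRCm39), and their log2 fold changes were -1.63, 0.69 and -0.24, of which none passed the test.

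Of 17 genes of signaling by ITAM and ITIM receptors, among them the Sirpa ligand Cd47 (0.49, adjusted p = 0.0452), all were tested, 1 was called higher and 1 lower, while 2 passed the adjusted p as higher and 6 as lower at any size. Fcer1g, the ITAM partner of Clec4d and Clec4e, fell from 321, 410 and 351 CPM to 165, 128 and 157 CPM (-1.27 ± 0.17, adjusted p = 0.00227). Card9, the adaptor that links Syk to NF-kB below these lectins, rose from 180, 174 and 178 CPM to 402, 356 and 326 CPM (1.03 ± 0.14, adjusted p = 0.00235). Its change lay close to the fold required, and it was 0.97 without Rpl22+/+ replicate 2, 0.94 without Rpl22-/- replicate 1, and 0.99 with DESeq2 size factors, by the test of DESeq2 or where the genes tested had to average 50 counts or more.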

How the data were processed

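The 37 genes, the lists beside them and the tests were chosen with earlier results of these data known. The authors sequenced poly(A)-enriched stranded libraries as paired ends, trimmed reads with Trimmomatic and ran Salmon (GRCm39 per the labels; versions not given in the sources used here). They deposited an estimated count and a TPM value for each of 276623 transcripts per library. The authors' table of their DESeq2 comparison also holds a base mean signal, used to check the sums, and positions; its fold changes and p-values were not used. Estimated counts were summed to genes by unversioned transcript identifier with GENCODE vM21 (136036 transcripts matched, holding 98.0% to 98.1% of reads) and rounded.

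Genotypes were compared with edgeR 4.0.16 in R 4.3.3 (filterByExpr, TMM, quasi-likelihood F test, genotype as the only term) over 16656 genes. The SE is the size of the log2 fold change over the root of F. Intervals were not computed, and reads are not independent molecules. Library values are printed for genes called with a mean of at least 1 CPM in either genotype and for genes at 100 CPM or more, and, of each further list, for the 2 called genes of largest change in each direction; Clec5a and the genes of the other observations were added after their values were seen. The 15 alternatives were DESeq2 size factors, no composition factor, no filter, a mean of at least 50 counts, the test of DESeq2 1.42.0, limma-voom (limma 3.58.1), limma on log2(TPM + 1) and on log2(TPM + 0.1), the replicate number as a block, and each library left out with the tested genes kept. The fits were tested on simulated data. Promoter windows are from RefSeq (GRCm38.p6) and coding sequences from GENCODE vM21. Figures were drawn with matplotlib 3.10.9.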

Additional observations from a re-analysis of the deposited data

How the results depend on the processing

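Of the 19 genes called, 11 were called under all 15 alternatives and all 19 kept their direction. The number called higher (7) ranged from 2 to 8 when 1 library was left out, and the number called lower (12) from 11 to 13. The median log2 fold change of the monocyte genes ranged from -1.23 to -0.86 when 1 library was left out (-0.97 with all), and that of the tissue macrophage genes was 0.25 on log2(TPM + 1) against 0.54, a scale that understates the change of low genes. On that scale Mrc1 (0.78), Mertk (0.25), Marco (0.37), Spic (0.61) and Lyve1 (-0.98) were under the fold required, as was Mertk on log2(TPM + 0.1) (0.87). Of the 17 genes tested and not called, 5 were called under some alternative and 4 changed sign. Without a composition factor the median of all genes moved from 0.07 to 0.19, Ms4a7 was at 0.025 and F10 was called (1.08). The sign of Siglec1 also changed with DESeq2 size factors (-0.00706) and with a mean of at least 50 counts (-0.0138). Clec5a was above 0 by limma-voom (0.21), on log2(TPM + 1) (0.28), on log2(TPM + 0.1) (0.29) and with the replicate block (0.19). With 1 library left out, the log2 fold changes ranged from -0.27 to 0.071 for Ms4a7, from -0.10 to 0.17 for Siglec1, from -0.020 to 0.15 for F13a1 and from -0.60 to 0.24 for Clec5a. The cause of these changes was not tested.

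The titles number the replicates 1 to 3 in both genotypes. Over all genes tested, same-numbered libraries deviated together at r = 0.479, 0.634 and 0.0974, and Rpl22+/+ replicate 3 correlated best with Rpl22-/- replicate 1 (0.357). Restricted to genes averaging 50 counts or more, the same-numbered values were 0.570, 0.715 and 0.129, and Rpl22+/+ replicate 3 again correlated best with Rpl22-/- replicate 1 (0.430). Whether every pair was above 0.1 thus depended on the genes used, and the pairing was not settled. The fit without the block was kept. With the replicate number as a block, 7 genes were called higher and 13 lower, the medians were 0.53 (tissue macrophage), -0.94 (monocyte), -1.62 (C-type lectin) and -1.08 (receptor and adaptor), and Trem1 was the gene gained (-1.96, adjusted p = 0.0123 by edgeR), while no other call among the 36 genes changed. With a mean of at least 50 counts Marco and Ms4a7 had no value. Vsig4 had too few reads to be tested.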

Other observations

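The lectin genes of the lists used here that lie beside Clec4d and Clec4e are described after their values were seen. Genes of that stretch outside the lists are not described. The 7 genes Clec4a1, Clec4a2, Clec4a3, Clec4b1, Clec4n, Clec4d and Clec4e lie within 368 kb on chromosome 6 (chr6:122898807-123266829 of GRCm39) and encode both inhibitory (Clec4a2) and activating (Clec4n, Dectin-2) receptors. All 7 passed the adjusted p from edgeR as lower in Rpl22-/- and none overlapped between genotypes, and 5 were called. Of all genes tested, 13.8% passed as lower, 46.1% did not overlap and 8.54% were called lower. Clec4a3 stood at 21.0, 20.7 and 28.7 CPM in Rpl22+/+ and at 7.08, 5.63 and 9.63 CPM in Rpl22-/- (-1.65 ± 0.25 on the log2 scale, SE, adjusted p = 0.00398), and it was called under all 15 alternatives, as was Clec4a1 (-1.31 ± 0.15, adjusted p = 0.00120). Clec4a2, the highest of them in reads at 198, 228 and 199.5 CPM against 118, 120.2 and 92.8 CPM, passed under all 15 at a smaller change (-0.92 ± 0.15, adjusted p = 0.00614). Clec4b1 (-1.54 ± 0.35, adjusted p = 0.0183) was not called without Rpl22+/+ replicate 3 or Rpl22-/- replicate 2, nor on log2(TPM + 1). Clec4n (-0.86 ± 0.25, adjusted p = 0.0427) did not pass with any single library left out (adjusted p of 0.0525 to 0.114). Reads of such related neighbours can be split between them, and the genes are not independent of one another.

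Some receptors for growth and homing signals in the lists used here were also picked out after their values were seen, and they did not move together. C5ar1, described above as called lower, was not among those picked. Among all genes tested, 8.93% were called higher and 8.54% lower. By edgeR, Csf1r, Ccr2, Csf2rb (-1.49 ± 0.18, adjusted p = 0.00171), Cxcr2 (-2.64 ± 0.28, adjusted p = 0.000984) and Flt3 (-1.06 ± 0.21, adjusted p = 0.0108) were called lower and Kit was called higher (1.35 ± 0.21, adjusted p = 0.00453). Cx3cr1 (-0.09, adjusted p = 0.821), Csf2ra (0.52, adjusted p = 0.149), Csf3r (0.47, adjusted p = 0.0645) and Xcr1 (0.09, adjusted p = 0.896) were not called. Csf1r, the receptor for CSF1 and IL-34, stood at 318, 606 and 387 CPM in Rpl22+/+ and at 160.1, 235 and 225 CPM in Rpl22-/- (-1.08 ± 0.28, adjusted p = 0.0294). Leaving out Rpl22+/+ replicate 3 (adjusted p = 0.0651), Rpl22-/- replicate 1 (0.0994) or Rpl22-/- replicate 3 (0.0813) removed its call, and without Rpl22+/+ replicate 2 (-0.81) or without a composition factor (-0.93) it passed the adjusted p below the fold required. Ccr2, the receptor that draws monocytes from the marrow, stood at 428, 217 and 499 CPM against 139, 127 and 162 CPM (-1.42 ± 0.31, adjusted p = 0.0164). Its call was kept without Rpl22+/+ replicate 2 and lost without each of the other libraries (adjusted p of up to 0.0864), and it did not pass on log2(TPM + 1) (0.0659) or on log2(TPM + 0.1) (0.0647).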
